A study of Mus musculus with 8 samples.

Results

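The monocyte chemoattractant protein (MCP) group of CC chemokines is represented in the mouse by Ccl2, Ccl7, Ccl8 and Ccl12, and these 4 genes were followed in bone marrow derived macrophages (BMDMs) with and without Mkl1. The members were taken by symbol from the tables of counts per gene, where they are 4 of 53735 listed symbols, and all 4 were among the 15618 genes that passed the filter on low counts. The study sequenced mRNA of 8 BMDM libraries, 4 WT (Mkl1+/+, Apoe-/-) and 4 KO (Mkl1-/-, Apoe-/-), in 2 experiments. Experiment 1 held WT libraries 1 and 2 and KO libraries 5 and 6, and experiment 2 held WT libraries 3 and 4 and KO libraries 7 and 8. All mice were males of 6 months that lacked Apoe and had received angiotensin II (Ang II) from a minipump at 1.44 mg/kg/day for 7 days, and their marrow cells were then differentiated in culture for 7 days. No group without Ang II and no group with Apoe was analysed here. The Mkl1 deletion was a global one, so every cell type of the donor mouse lacked it, before and during culture. The labels do not say whether each library came from its own mouse, so the p-values measure the spread between these libraries.

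MCP chemokines are small secreted proteins that draw Ly6C-high monocytes out of the marrow and into inflamed tissue, mainly through the receptor Ccr2. Their genes are switched on in macrophages, fibroblasts and smooth muscle cells by TNF, interleukin-1, Toll-like receptor ligands and interferons, with NF-kB, AP-1 and C/EBP factors acting at their promoters. MKL1, also called MRTF-A, is a coactivator of serum response factor, which binds the CArG box. The comparison asks whether MCP transcripts were lower in macrophages without MKL1, as inflammatory mediators were the reason for sequencing these cells.

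The 4 genes lie in a single cluster on chromosome 11 (GRCm38, GENCODE M21), all on the plus strand. Ccl2 (ENSMUSG00000035385.5) spans 82035571 to 82037453 and Ccl7 (ENSMUSG00000035373.2) spans 82045712 to 82047525, so that Ccl7 starts 10.1 kb after Ccl2. Ccl12 (ENSMUSG00000035352.3) spans 82101845 to 82103400 and Ccl8 (ENSMUSG00000009185.2) spans 82115185 to 82116799, which puts their starts 66.3 and 79.6 kb from that of Ccl2. The cluster also holds the eotaxin gene Ccl11, with 0 counts in every library, and Ccl1, with 0 counts in all libraries but KO 8, which had 2. The minus-strand gene Gm17268 overlaps Ccl2, but held 0 or 1 count in each library. No pair of members shared a stretch of 50 bases in its annotated transcripts, and the longest shared run was 23 bases, between Ccl2 and Ccl7, so a read of 50 bases from an annotated transcript matches 1 member.

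RefSeq promoters were at hand for Ccl12 and Ccl8, 2 of the 4 members. The 250 bases before the starts of these neighbouring genes were 73.2% identical over 220 aligned positions, gaps left out. No other promoters were compared in this way. Both promoters are given on the plus strand of GRCm38.p6, with the TATA box in capitals, chr11:82101595-82101844 for Ccl12 and chr11:82114935-82115184 for Ccl8.
Ccl12: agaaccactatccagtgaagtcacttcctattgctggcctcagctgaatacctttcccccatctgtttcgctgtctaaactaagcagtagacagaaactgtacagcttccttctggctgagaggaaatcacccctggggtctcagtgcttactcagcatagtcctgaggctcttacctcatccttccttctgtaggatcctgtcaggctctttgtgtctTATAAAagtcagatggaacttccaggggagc
Ccl8: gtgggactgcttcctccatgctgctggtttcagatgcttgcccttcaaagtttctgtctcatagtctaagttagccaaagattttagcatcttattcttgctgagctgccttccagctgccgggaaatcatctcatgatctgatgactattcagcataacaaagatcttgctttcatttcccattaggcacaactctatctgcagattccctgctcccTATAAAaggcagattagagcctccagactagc
The TATA box lay at bases -31 to -26 of Ccl12 and -32 to -27 of Ccl8, counted back from the start. The letters TATAAA were found on either strand in 12.4% of all 32851 RefSeq promoters of this length. Neither window held a match on either strand to the AP-1 motif TGANTCA, the C/EBP motif TTGCNNAA, the interferon-stimulated response element, the NF-kB consensus or the CArG box. Those 5 motifs occurred in 6.75%, 9.56%, 2.98%, 3.90% and 1.47% of all such promoters. A window without a match says only that these letters were not in these 250 bases.

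Depth was 33977799 to 41584540 counts per library, and the deleted gene served as a check of the labels. Mkl1 had 25.7, 27.1, 26.9 and 29.7 CPM (counts scaled to the size of the library) in WT 1 to 4 and 19.3, 20.7, 14.6 and 10.5 CPM in KO 5 to 8. Every KO library was thus below every WT library, an order that 5.9% of all tested genes had. Counts remained in all KO libraries, and counts per gene do not show which exons they fell on. The log2 fold change of Mkl1 was -0.41 in experiment 1 (adjusted p = 0.0028 in edgeR) and -1.17 in experiment 2 (adjusted p = 0.020). The first lost its call with all 8 libraries in 1 fit (-0.40, adjusted p = 0.067 in edgeR). The mean over both was -0.78 (adjusted p = 0.053 in edgeR and 0.0025 in DESeq2). Across all tested genes, the profile of experiment 2 KO was nearest to that of experiment 1 WT (SD of log2 differences 0.434), nearer than the WT groups of both experiments were to each other (0.870) or the KO groups were (1.02). Replicate libraries of experiment 2 also varied more, with a chi-square per gene of 61.3 and 74.4 within its WT and KO pairs, against 14.6 and 11.6 in experiment 1. All 10 macrophage markers were detected, each with over 3 counts in at least 1 library. The series' own design treats the experiments as separate batches, so each was tested alone and their difference was tested as an interaction.

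Ccl2 and Ccl7 were the abundant members and were strongly lower in KO in experiment 1, whereas in experiment 2 neither passed the test. Ccl12 and Ccl8 were minor transcripts that passed in neither experiment with all libraries kept. They had large differences within some replicate pairs, up to 5.11-fold for Ccl12 and 27.8-fold for Ccl8, both in experiment 2 KO. In experiment 1, 2 of the 4 members passed the test and both were lower in KO, where 54.2% of all tested genes were called and 27.4% were called lower. In experiment 2 none of the 4 passed in edgeR's test, where 15.1% of genes were called. At an unadjusted p under 0.05 the count there was also 0, and it was 0 in DESeq2 and limma-voom.

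Ccl2 (MCP-1), the main Ccr2 ligand and the best studied monocyte attractant, had 312 and 325 CPM in WT 1 and 2 and 33.0 and 54.4 CPM in KO 5 and 6, from counts of 12660, 11075, 1234 and 2197. Both KO libraries lay below both WT libraries, an order that 38% of all tested genes had, whatever the size of the gap. The level in KO was 7.36-fold lower (log2 fold change -2.88, SE 0.30, adjusted p = 0.0055 in edgeR, by its quasi-likelihood F test with p-values adjusted over all genes by Benjamini and Hochberg). In experiment 2 the levels were 329 and 209 CPM in WT 3 and 4 and 320 and 168 CPM in KO 7 and 8. These groups overlapped, with a log2 fold change of -0.14 (SE 0.38, adjusted p = 0.83 in edgeR). Without WT 1 or WT 2 the experiment 1 difference kept its size (-2.91 and -2.85) but lost its call, with adjusted p of 0.096 and 0.0925 in edgeR.

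Ccl7 (MCP-3), which also binds Ccr1 and Ccr3, followed Ccl2. It had 181 and 216 CPM in WT 1 and 2 and 17.0 and 29.2 CPM in KO 5 and 6, so the groups were again well apart, by 8.64-fold (log2 fold change -3.11, SE 0.35, adjusted p = 0.0089 in edgeR). In experiment 2 it had 180 and 80.8 CPM in WT 3 and 4 and 266 and 120 CPM in KO 7 and 8. There the groups overlapped, with KO 7 the highest of all libraries and a log2 fold change of 0.56 (SE 0.54, adjusted p = 0.52 in edgeR). The experiment 1 call was lost without WT 1 (-3.24, adjusted p = 0.0907 in edgeR), without WT 2 (-2.98, adjusted p = 0.0925) and with no filter on low counts (-3.13, adjusted p = 0.0533).

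The KO difference of both genes differed between the experiments by the interaction test over all 8 libraries. The log2 fold change was higher in experiment 2 than in experiment 1 by 2.73 for Ccl2 (SE 0.50, adjusted p = 0.0046 in edgeR) and by 3.66 for Ccl7 (SE 0.68, adjusted p = 0.0049). Such an interaction was common, since 39.8% of all tested genes passed that test, 20.2% in this direction and 19.7% in the other. Experiment 1 KO was the group that stood apart for both genes, while experiment 1 WT and both experiment 2 groups had Ccl2 between 168 and 329 CPM and Ccl7 between 80.8 and 266 CPM. With both experiments in a single additive fit, the mean log2 fold change was -1.50 for Ccl2 (SE 0.64, adjusted p = 0.20 in edgeR) and -1.26 for Ccl7 (SE 0.91, adjusted p = 0.43). None of the 4 members passed that test, which 6.85% of all genes did, 3.26% of them lower and 3.59% higher in KO. At an unadjusted p under 0.05 the count was 2, Ccl2 and Ccl8, and those 2 passed in DESeq2. Ccl2 and Ccl7 passed as the mean of both contrasts in a fit with 4 groups (adjusted p = 0.0044 and 0.024 in edgeR). The number of genes called for this mean effect, 1070, itself ranged from 4 with no experiment term to 4962 in the fit with 4 groups. No member had all 4 KO libraries on one side of all 4 WT libraries, which 5.9% of tested genes had on the lower and 6.15% on the higher side.

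Ccl12 (MCP-5), a mouse ligand of Ccr2 with no counterpart gene in humans, had 7.60 and 10.8 CPM in WT 1 and 2 and 6.21 and 9.31 CPM in KO 5 and 6. The groups overlapped, and the log2 fold change of -0.25 (SE 0.25, adjusted p = 0.44 in edgeR) stood beside a difference of 1.42-fold between the WT libraries alone. In experiment 2 it had 66.1 and 15.2 CPM in WT 3 and 4 and 22.9 and 4.49 CPM in KO 7 and 8. WT 3 was the highest of all libraries and KO 8 the lowest, but KO 7 lay above WT 4. The log2 fold change was -1.57 (SE 1.00, adjusted p = 0.35 in edgeR), and libraries of 1 group differed by 4.34-fold in WT and 5.11-fold in KO. The value of experiment 2 moved with single libraries, from -3.17 without KO 7 to -0.15 without WT 3.

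Ccl8 (MCP-2), which in mice acts through Ccr8, was the rarest member. It had 27 and 85 counts in WT 1 and 2 and 128 and 268 counts in KO 5 and 6, or 0.666, 2.50, 3.43 and 6.64 CPM. Both KO libraries were above both WT libraries, as for 41.5% of tested genes, but the log2 fold change of 1.69 (SE 0.76, adjusted p = 0.16 in edgeR) did not pass. In experiment 2 it had 38 and 29 counts in WT 3 and 4 and 767 and 28 counts in KO 7 and 8, or 1.04, 0.837, 18.7 and 0.675 CPM. KO 7 alone was high, at 27.8 times the level of KO 8, whose 28 counts (95% Poisson interval 18.6 to 40.5, counting error only) could not be told from the 29 of WT 4. The log2 fold change of 3.36 (SE 1.5, adjusted p = 0.20 in edgeR) was -0.47 without KO 7, and 4.31 without KO 8 (adjusted p = 0.029). In experiment 1 it passed without WT 2 (2.90, adjusted p = 0.013 in edgeR). Neither Ccl8 nor Ccl12 had a called interaction (1.67 with adjusted p = 0.48, and -1.33 with adjusted p = 0.38, in edgeR), though both passed with no filter on low counts (adjusted p = 1.4e-05 and 1.2e-08).

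**Figure D1:**
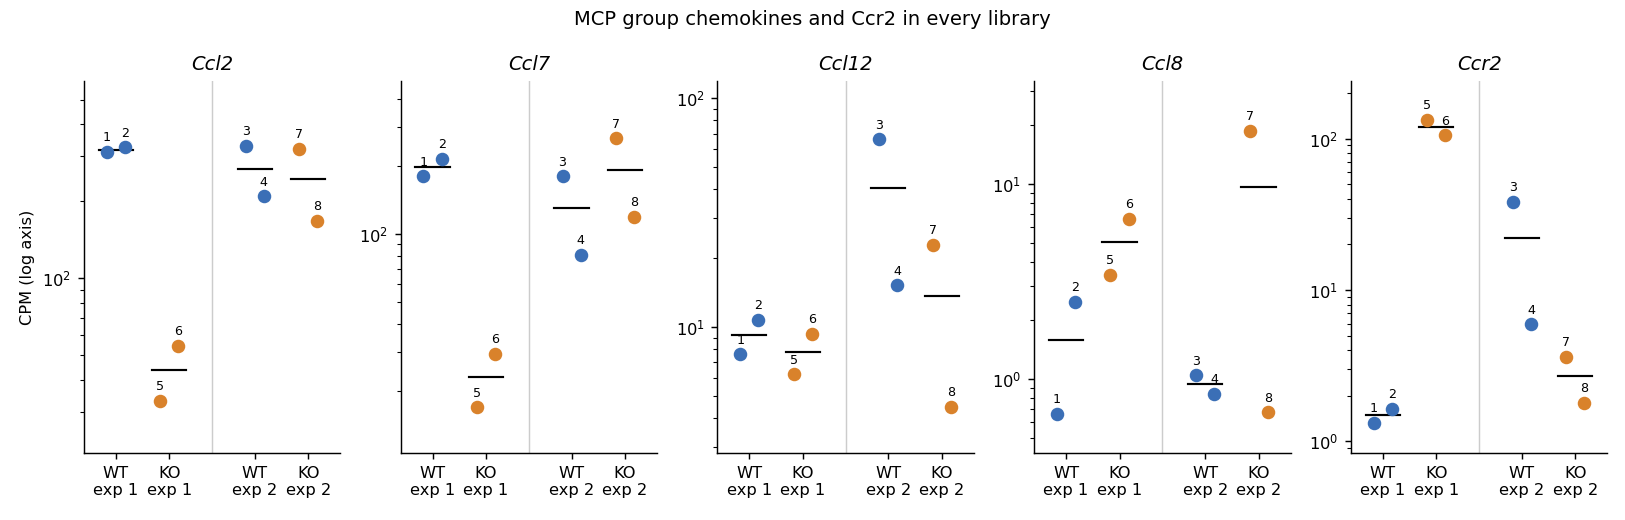
Level of each MCP chemokine and of the receptor Ccr2 in CPM, on log axes with a scale of their own, for each library (points, numbered as in the text) of the 2 WT and 2 KO libraries of each experiment, with the group mean as a line. Ccl2 and Ccl7 are low in KO 5 and 6 only, Ccl12 is highest in WT 3 (66.1 CPM), Ccl8 in KO 7 (18.7 CPM) and Ccr2 in KO 5 and 6.

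The make-up of the MCP pool differed between libraries. Summed over the 4 members, the level was 501, 554, 576 and 306 CPM in WT 1 to 4, and 59.6, 99.6, 628 and 293 CPM in KO 5 to 8. Corrected for exon length (CPM per kb, which allows levels of different genes to be compared), Ccl2 and Ccl7 were the largest shares in every library, with 53.2% and 43.8% of the pool in WT 1, 45.2% and 35.2% in WT 3 and 42.4% and 30.9% in KO 5. Ccl2 stood above Ccl7 per kb in all 4 WT libraries and in KO 5 and 6, whereas in KO 7 (281 against 332 CPM per kb) Ccl7 was above Ccl2, and in KO 8 both were close (148 and 149). Ccl12 ranked below both and Ccl8 last per kb in all 8 libraries.

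In KO 5 and 6, where Ccl2 and Ccl7 were low, Ccl12 made up 16.9% and 15.1% of the pool per length and Ccl8 9.79% and 11.3%. In WT 1 and 2 those shares were 2.74% and 3.46% for Ccl12 and 0.253% and 0.842% for Ccl8. Ccl12 also reached 19.3% in WT 3, so a high share of Ccl12 was not particular to KO. These shares were not tested.

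Within a library, the ratio of 2 genes' counts does not depend on scaling. Ccl7 had 0.579 and 0.663 counts per Ccl2 count in WT 1 and 2 and 0.514 and 0.538 in KO 5 and 6, so both genes were low in nearly the same proportion. In experiment 2 the ratio was 0.549 and 0.387 in WT 3 and 4 and 0.832 and 0.711 in KO 7 and 8, the highest of all. Ccl12 had 0.0243 and 0.0331 counts per Ccl2 count in WT 1 and 2 and 0.188 and 0.171 in KO 5 and 6, while experiment 2 ran the other way, with 0.201 and 0.0727 in WT and 0.0716 and 0.0267 in KO. Ccl8 had 0.104 and 0.122 counts per Ccl2 count in KO 5 and 6 and 0.0586 in KO 7, and at most 0.00767 in the other libraries.

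**Figure D2:**
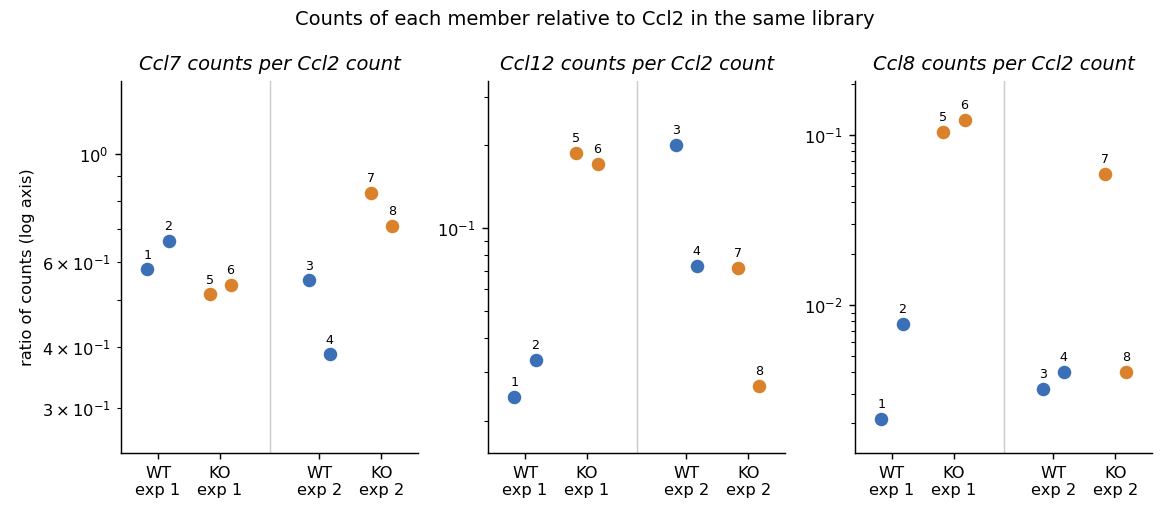
Counts of Ccl7, Ccl12 and Ccl8 per Ccl2 count in the same library (log axes, each panel with its own scale), with a point for each of the 8 libraries, numbered as in the text. The Ccl7 ratio stays between 0.387 and 0.832, while those of Ccl12 and Ccl8 differ between libraries by far more and are high in KO 5 and 6, with Ccl12 also high in WT 3 and Ccl8 in KO 7.

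Across the 8 libraries the log2 CPM of Ccl2 and Ccl7 had a Pearson r of 0.976, given as a description because KO 5 and 6 lie apart from the rest. The other pairs ran from -0.25 (Ccl2 and Ccl8) to 0.49 (Ccl2 and Ccl12). Of all tested genes, those most like Ccl2 by this measure over 8 libraries were Rgs1 (r = 0.992), a regulator of G protein signalling, Oat (0.988), ornithine aminotransferase, and Saa3 (0.981), an acute phase protein. Most like Ccl7 were Vmp1 (0.981), Gins1 (0.977) and Ccl2 itself. Ccl8 was nearest to Man2a1 (0.948), Adamts1 (0.945) and Lrp1 (0.941), and Ccl12 to H2-M3 (0.981), Cul4a (0.976) and Mbd2 (0.964). The 8 points of each correlation share their groups and experiments, and taking the highest of 15618 genes favours high values. A high r also says nothing of the size of a change. Cul4a ran from 94.0 to 105 CPM over the 8 libraries, and Ccl12 from 4.49 to 66.1 CPM.

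Receptors of the MCP chemokines were followed as well. Of 6 receptors known to bind MCP chemokines, Ccr8 and Ackr1 had 0 counts in every library and Ackr2 at most 1, so 3 were tested. In experiment 1, 2 of these rose and 1 fell in KO (26.8% and 27.4% of all tested genes), and in experiment 2 none of the 3 passed in edgeR (15.1% of all tested genes). At an unadjusted p under 0.05 the count there was 1, Ccr2, and it was 1 in DESeq2, Ccr1, and 0 in limma-voom. Ccr2 is the receptor of Ccl2, Ccl7 and Ccl12 on inflammatory monocytes. It had 54 and 56 counts in WT 1 and 2 and 4977 and 4236 counts in KO 5 and 6, or 1.33, 1.64, 133 and 105 CPM. That is 79.6-fold higher (log2 fold change 6.31, SE 0.18, adjusted p = 5.0e-06 in edgeR), in the same libraries in which its ligand Ccl2 was 7.36-fold lower. In experiment 2 it had 38.1 and 5.92 CPM in WT 3 and 4 and 3.59 and 1.78 CPM in KO 7 and 8. Both KO libraries were below both WT libraries there, as for 32% of tested genes, but WT 3 was 6.44 times WT 4 and the log2 fold change of -3.03 (SE 0.97, adjusted p = 0.11 in edgeR) did not pass. It passed without WT 4 (-3.82, adjusted p = 0.018 in edgeR) and with all 8 libraries in 1 fit (-3.04, adjusted p = 0.021). The interaction was called (-9.36, SE 1.17, adjusted p = 0.00098 in edgeR).

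Ccr1, which binds Ccl7 besides the MIP chemokines, had 4.12 and 3.44 CPM in WT 1 and 2 and 12.4 and 18.3 CPM in KO 5 and 6 (log2 fold change 2.00, adjusted p = 0.00044 in edgeR). In experiment 2 its log2 fold change was -1.75 (adjusted p = 0.16 in edgeR), and the interaction of -3.77 was called (adjusted p = 0.0078), though not without KO 6 (-3.46, adjusted p = 0.054). It passed in experiment 2 in DESeq2 (-1.75, adjusted p = 0.020), without KO 7 (-3.16, adjusted p = 0.040 in edgeR) and with all 8 libraries in 1 fit (-1.75, adjusted p = 0.047). Ccr3, the eotaxin receptor, fell in experiment 1 from 8.36 and 13.7 to 3.21 and 2.53 CPM (log2 fold change -1.96, adjusted p = 0.0020 in edgeR). It lost its call without KO 6 (-1.79, adjusted p = 0.052 in edgeR). It did not pass in experiment 2 (0.10, adjusted p = 0.93 in edgeR) or in the interaction (2.04, adjusted p = 0.068), which passed in DESeq2 (2.05, adjusted p = 0.012), with no filter on low counts (2.05, adjusted p = 5.3e-12 in edgeR) and without KO 8 (2.65, adjusted p = 0.020 in edgeR).

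**Figure D3:**
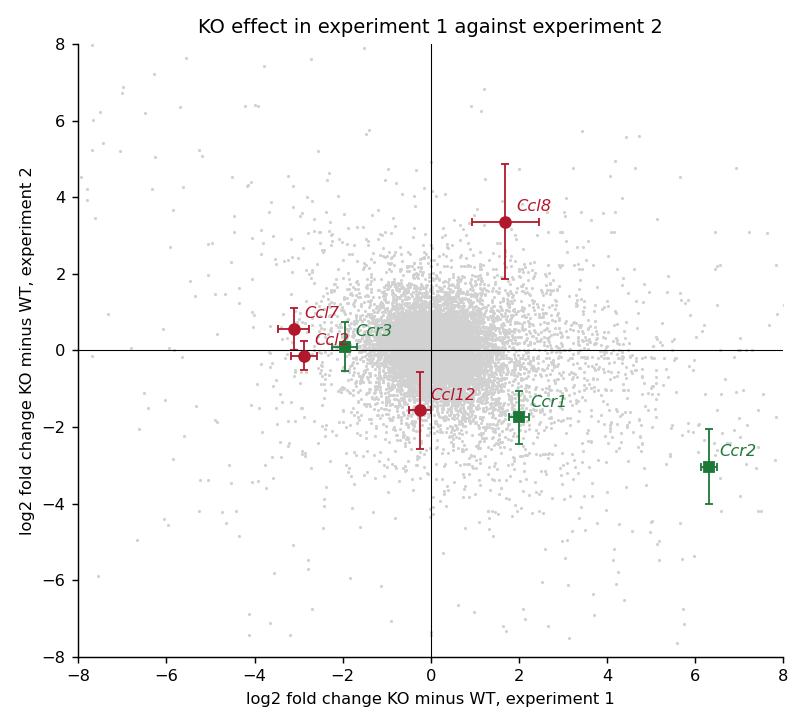
Log2 fold change of KO against WT in experiment 1 (horizontal) and experiment 2 (vertical) for each tested gene (grey points; 43 of 15618 lie outside the axes), the MCP chemokines (red circles) and their tested receptors (green squares), with bars of 1 SE. Ccl2 and Ccl7 lie far left at about 0 in experiment 2 (-0.14 and 0.56), while Ccr2 and Ccr1 lie at the lower right.

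Markers of cell types were summed in each group. Of the 10 macrophage markers, 3 fell and 7 rose in experiment 1 (27.4% and 26.8% of all tested genes). They summed to 28227 to 37157 CPM in WT 1 and 2, 22197 to 24735 CPM in KO 5 and 6, 17334 to 23536 CPM in WT 3 and 4 and 19654 to 27315 CPM in KO 7 and 8. Of 9 fibroblast or stromal markers, 8 were tested and 8 rose in experiment 1 KO, with a summed level of 227 to 298 CPM against 5.89 to 13.8 CPM in WT 1 and 2 and 2.77 to 14.7 CPM in experiment 2. Their sum was thus high in KO 5 and 6, the libraries in which Ccl2 and Ccl7 were low. Lum had at most 3 counts in every library. The 5 monocyte markers, of which Ccr2 is one, summed to 130 to 154 CPM in KO 5 and 6 and to between 70.5 and 191 CPM in WT 3 and 4, against 5.90 to 11.5 CPM in the other libraries. Ccr2 alone held 133 and 105 CPM in KO 5 and 6, so most of the sum there was Ccr2, but 38.1 and 5.92 CPM in WT 3 and 4. Endothelial markers, 4 of 4 with over 3 counts in at least 1 library, summed to 163 to 189 CPM in KO 5 and 6, 71.9 to 90.6 CPM in WT 1 and 2, 119 to 224 CPM in WT 3 and 4 and 68.9 to 107 CPM in KO 7 and 8. Markers of neutrophils (5 of 8 with at most 3 counts in every library), dendritic cells (3 of 7), mast cells or basophils (4 of 5) and lymphocytes (4 of 5) summed to at most 2.83 CPM. The part of any of these cells in the MCP differences was not tested, and in bulk libraries fewer cells of a type and less RNA per cell cannot be told apart.

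Along chromosome 11, Ccl2 and Ccl7, 10.1 kb apart, had nearly the same log2 fold change in experiment 1 (-2.88 and -3.11), and Ccl12 and Ccl8, further along, had -0.25 and 1.69. In experiment 2 the values in the same order were -0.14, 0.56, -1.57 and 3.36, and no relation with position was tested. The median over the 4 members was -1.57 in experiment 1 and 0.21 in experiment 2, beside 0.02 and 0.00 over all tested genes.

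**Figure D4:**
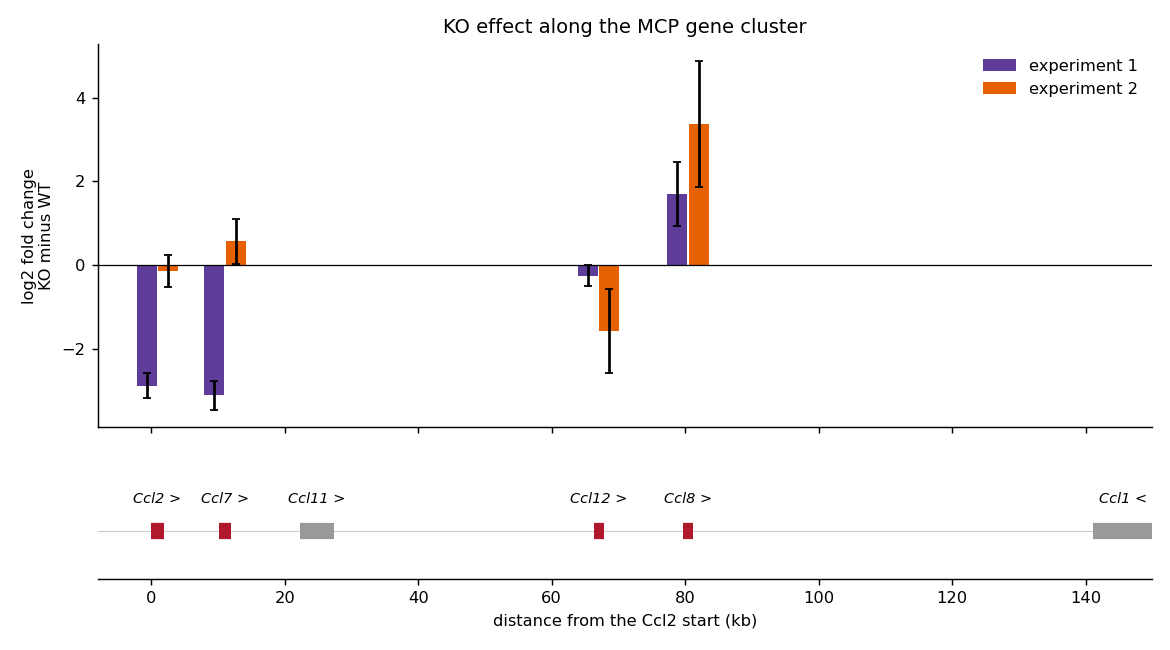
Log2 fold change of KO against WT for the 4 members (bars, with 1 SE) in experiment 1 (purple) and experiment 2 (orange), placed by distance from the Ccl2 start in kb, above a map of the cluster with members in red, other genes in grey and arrows for the strand (Ccl1 runs past the right edge). The low values of Ccl2 and Ccl7 in experiment 1 (-2.88 and -3.11) sit side by side, and Ccl8 at 79.6 kb is above 0 in both experiments.

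In the MIP group, on the same chromosome but outside this cluster, Ccl3 and Ccl4, the MIP-1 alpha and beta genes, were lower in KO in both experiments. Ccl3 had 491 and 457 CPM in WT 1 and 2 and 78.0 and 74.9 CPM in KO 5 and 6 (log2 fold change -2.65, adjusted p = 2.4e-07 in edgeR). In experiment 2 it fell from 1122 and 1059 to 263 and 349 CPM (-1.83, adjusted p = 0.0075). Ccl4 had log2 fold changes of -2.40 and -1.04 (adjusted p = 3.1e-07 and 0.042 in edgeR), and the call of experiment 2 was lost without any 1 of its libraries (adjusted p 0.053 to 0.16). Of the 5 genes of that list, 2 fell and 2 rose in experiment 1 (27.4% and 26.8% of all tested genes), and in experiment 2 3 fell (8%) and none rose in edgeR (7.1%) or at an unadjusted p under 0.05. Its median was -0.24 in experiment 1 and -1.83 in experiment 2 on the log2 scale. Ccl9, which also fell in experiment 2, went from 2894 and 3337 to 890 and 577 CPM (-2.09, adjusted p = 0.011 in edgeR), while its experiment 1 value was -0.24 (adjusted p = 0.22). The first call was lost without KO 8 (-1.81, adjusted p = 0.055 in edgeR), and Ccl9 passed in experiment 1 without WT 2 (-0.43, adjusted p = 0.0022) and with no filter on low counts (-0.25, adjusted p = 0.0015). The 2 that rose in experiment 1, named after their values were seen, were Ccl5 (2.36) and Ccl6 (1.26).

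Inducers of MCP genes, namely cytokines and receptors upstream of them, were tested for 15 of 16 genes. In experiment 1, 5 fell and 5 rose (median log2 fold change -0.06), where 27.4% of all tested genes fell and 26.8% rose, and in experiment 2, 9 fell and 1 rose (median -1.01), where 8% of all tested genes fell and 7.1% rose. Tnf, the cytokine that switches on Ccl2 and Ccl7 through NF-kB, fell in both. It had 326 and 295 CPM in WT 1 and 2 and 20.1 and 26.5 CPM in KO 5 and 6 (log2 fold change -3.75, adjusted p = 2.0e-05 in edgeR). In experiment 2 it fell from 1414 and 1636 to 128 and 124 CPM (-3.59, adjusted p = 0.0022 in edgeR). Its interaction was not called (0.14, adjusted p = 0.61 in edgeR).

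Tnfrsf1b, the second TNF receptor, also fell in both (-1.69 and -0.81, adjusted p = 1.5e-06 and 0.021 in edgeR), though leaving out any 1 library of experiment 2 took that call away (adjusted p 0.075 to 0.10). Csf1, the macrophage growth factor, turned its direction. It rose from 5.43 and 5.99 to 43.7 and 61.8 CPM in experiment 1 (3.20, adjusted p = 0.00020 in edgeR) and fell from 96.5 and 98.2 to 4.30 and 3.11 CPM in experiment 2 (-4.71, adjusted p = 0.0022). Of all tested genes, 2.92% were likewise called higher in experiment 1 and lower in experiment 2, and 3% the other way round. The other genes that fell in experiment 1, named after their values were seen, were Il1a (-3.13), Il1b (-3.65) and Il6 (-5.27), and those that rose were Il1r1 (2.20), Csf1r (0.80), Ifnar2 (0.41) and Tlr4 (0.39). Il1r1, the signalling receptor of interleukin-1, was also the single gene of the list that rose in experiment 2 (2.05).

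Transcription factors known at MCP promoters were tested for 20 of 20 genes, Mkl1 among them. In experiment 1, 10 fell and 8 rose (median -0.15), where 27.4% and 26.8% of all tested genes did, and in experiment 2, 9 fell and 1 rose (median -0.87), where 8% and 7.1% did. The factors with the smallest p in experiment 1 were Fos, a part of AP-1, and Cebpb. Fos went from 89.5 and 85.6 to 24.8 and 26.7 CPM (-1.78, adjusted p = 1.0e-06 in edgeR) and had -0.35 in experiment 2 (adjusted p = 0.17). Cebpb went from 94.3 and 96.4 to 30.9 and 33.3 CPM (-1.58, adjusted p = 1.4e-06 in edgeR) and had 86.4 and 82.2 CPM in WT 3 and 4 against 77.6 and 86.7 CPM in KO 7 and 8 (-0.04, adjusted p = 0.85, and 0.00 with upper-quartile scaling). Fos and Cebpb thus passed in experiment 1 and not in experiment 2, and both had a called interaction (1.41 and 1.53, adjusted p = 0.00089 and 0.00022 in edgeR). They were picked for their small p in experiment 1, so passing there followed from the choice. Of the 20 factors, 3 had a called interaction in this direction and 12 in the other, where 20.2% and 19.7% of all tested genes did. Whether either factor bears on Ccl2 and Ccl7 was not tested.

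In experiment 2 the smallest p were those of Irf1, an interferon response factor, and Nfkb2, an NF-kB subunit. Irf1 fell there from 405 and 438 to 55.2 and 44.3 CPM (-3.08, adjusted p = 0.0022 in edgeR), after rising in experiment 1 (1.03, adjusted p = 1.1e-05). Nfkb2 fell from 244 and 260 to 45.1 and 35.4 CPM (-2.65, adjusted p = 0.0029 in edgeR). In experiment 1 its change was small (-0.25, adjusted p = 0.021), and the call was lost with upper-quartile scaling (-0.14, adjusted p = 0.16), with all 8 libraries in 1 fit (-0.23, adjusted p = 0.16) and without WT 1 (-0.15, adjusted p = 0.17). The gene that rose in experiment 2, named after its value was seen, was Jun (0.87).

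The list of mRNA decay factors holds proteins that act on the life of inflammatory transcripts, most of them by shortening it, whereas Elavl1 (HuR) stabilises AU-rich transcripts. Of the 6 tested, 3 fell and 2 rose in experiment 1 (median -0.06; 27.4% and 26.8% of all tested genes), and 2 fell and 1 rose in experiment 2 (median -0.09; 8% and 7.1%). Zc3h12a (Regnase-1), an endonuclease itself induced by Ccl2, fell from 49.6 and 51.2 to 14.0 and 15.0 CPM in experiment 1 and from 62.9 and 56.6 to 34.2 and 37.5 CPM in experiment 2 (-1.81 and -0.74, adjusted p = 1.2e-06 and 0.019 in edgeR). Zfp36l2, an AU-rich element binding protein, rose in both (0.93 and 0.74, adjusted p = 9.3e-06 and 0.017 in edgeR). In experiment 2 the calls of Zc3h12a and Zfp36l2 were lost when WT 3, KO 7 or KO 8 was left out, and that of Zfp36l2 also without WT 4 (adjusted p 0.058 to 0.095 in edgeR). The other genes called were Zfp36, which fell in both (-0.59 and -0.92), Elavl1, which fell in experiment 1 (-0.20), and Zfp36l1, which rose there (1.57), all named after their values were seen.

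Proteases that trim MCP chemokines were tested for 4 of 6 genes. In experiment 1, 2 fell and 1 rose (median -0.75), where 27.4% and 26.8% of all tested genes did, and in experiment 2 none passed in edgeR (median -0.42), where 15.1% did. Mmp14 was the 1 gene of the list at an unadjusted p under 0.05 there. It passed in DESeq2 (adjusted p = 0.0037), in limma-voom (0.032) and in edgeR with upper-quartile scaling (0.049), with filters over the 2 genotypes (0.047) or at 10 counts in every library (0.044), and with all 8 libraries in 1 fit (0.0049), but not with no filter on low counts (0.35). Mmp9 fell from 7.20 and 4.26 to 0.723 and 0.693 CPM in experiment 1 (-3.03, adjusted p = 0.00014 in edgeR). Mmp2, which cleaves Ccl7, rose from 0.543 and 1.38 to 12.3 and 12.4 CPM (3.70, adjusted p = 0.00035). Mmp14, the membrane-bound activator of Mmp2, fell from 1145 and 680 counts to 318 and 343 (-1.52, adjusted p = 0.00051), and this call was lost with all 8 libraries in 1 fit (adjusted p = 0.066). In experiment 2 Mmp9 and Mmp2 had log2 fold changes of 0.74 and 0.16 (adjusted p = 0.18 and 0.92 in edgeR), and Mmp14 one of -3.25 (adjusted p = 0.052), which passed without KO 7 (-4.73, adjusted p = 0.020) and without KO 8 (-2.53, adjusted p = 0.029).

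Interferon stimulated genes turned their direction between the experiments. Of 14 tested, 11 rose and none fell in experiment 1 (median 1.57), where 26.8% and 27.4% of all tested genes did. In experiment 2 12 fell and none rose (median -3.66), where 8% and 7.1% did. All 14 had a called interaction, with the lower value in experiment 2, where 19.7% of all tested genes did. No gene of the list fell in experiment 1 or rose in experiment 2 at an unadjusted p under 0.05. Ifit2 rose from 56.6 and 58.2 to 319 and 286 CPM in experiment 1 and fell from 2120 and 931 to 154 and 82.2 CPM in experiment 2 (2.38 and -3.69, adjusted p = 3.6e-07 and 0.021 in edgeR). The experiment 2 call of Ifit2 was lost without KO 7 (-4.21, adjusted p = 0.058), without KO 8 (-3.31, adjusted p = 0.10) and with no filter on low counts (-3.69, adjusted p = 0.17). Ifi205 had 164 and 168 CPM in WT 3 and 4 and at most 2.15 CPM in the other libraries (log2 fold change in experiment 2 -6.64, adjusted p = 0.0022 in edgeR). Like Ifit2, Ccl12 was highest in WT 3, but at 15.2 CPM in WT 4 against 22.9 CPM in KO 7 its groups overlapped, and its interaction was not called.

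**Figure D5:**
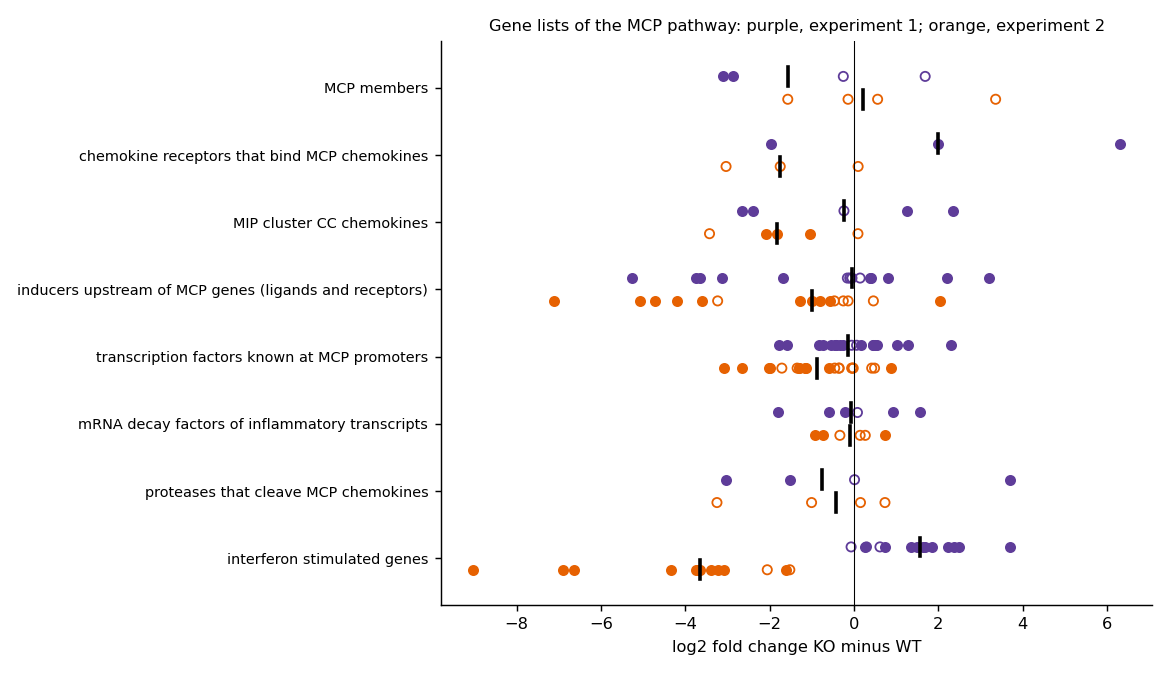
Log2 fold change of KO against WT for each tested gene of the MCP members and of 7 lists around them, in experiment 1 (purple, upper row of each list) and experiment 2 (orange, lower row), filled where the gene passed an adjusted p of 0.05 and open where it did not, with the median as a bar. Interferon stimulated genes lie right of 0 in experiment 1 (median 1.57) and left of 0 in experiment 2 (median -3.66), while the members spread to both sides.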

How the data were processed

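The 8 mRNA libraries were built with the TruSeq Stranded kit. The submitters' processing notes name GRCm38, STAR 2.7.0f, Subread 1.6.4, featureCounts and DESeq2 1.22.1. The annotation release and the strand setting of the counting were not given in the sources used here. Of the tables deposited by the authors, those of raw counts were used, and those of counts divided by size factors, set for each experiment alone, were not. Groups came from the labels.

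Each experiment was fitted alone with edgeR 4.0.16 in R 4.3.3 (TMM, filterByExpr over the 4 groups of genotype and experiment, robust quasi-likelihood F test, Benjamini-Hochberg adjustment over 15618 genes, threshold 0.05). The interaction and the additive mean effect were fitted over all 8 libraries. CPM used TMM-scaled totals of tested genes, and correlations used log2 CPM with a prior count of 2. Each SE was the absolute log2 fold change over the root of its F. Lengths and positions came from GENCODE M21, which held 53.2% of the listed symbols and all members. Promoters came from RefSeq, GRCm38.p6. Alternatives were DESeq2 1.42.0, limma-voom (limma 3.58.1), upper-quartile scaling, other filters, other terms and leaving out each library. On simulated data with 200 changed genes, edgeR recovered 150 in experiment 1 with 2 false calls, 149 in experiment 2 with 5, 119 in the interaction with 4 and 171 in the mean effect with 12. The simulation gave both experiments the same spread, estimated over all 8 libraries. Real replicates of experiment 2 varied more than those of experiment 1, so these counts cannot show whether the experiments differed in power.

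Named were all members, their receptors and cluster neighbours, the 2 genes with the smallest p per experiment of each other list, the 3 genes most correlated with each member, and Mkl1. Members and lists were chosen with earlier results of these data known. 1 receptor of the lists is not reported here.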

Additional observations from a re-analysis of the deposited data

Results flagged for a closer look

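Values far from the other libraries of their genotype were marked with Dixon's test, in which a gap divided by the whole range of 4 libraries had to exceed the 95% critical value, over both experiments together. Of 54 sets of 4 libraries, 6 were marked. Chance marks about 1 in 20 where 4 libraries come from a single distribution, but each set here pools 2 experiments whose levels can differ, so this rate is only a rough guide. WT 4 was low for Ccl2 (gap over range 0.863), and WT 3 was high for Ccl12 (0.870) and for Ccr2 (0.875). KO 7 was high for Ccr3 (0.873) and for Mmp14 (0.846), and WT 2 was high for Mmp2 (0.907).

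The KO difference differed between the experiments by the interaction test in 21 of 27 tested genes among the members, their receptors, the genes named from the other lists and Mkl1. Most of the 27 were chosen by the smallest p within an experiment, so this count is a description and is not read against the 39.8% of all tested genes. Of the 11 other genes named for their correlation with a member, which were not counted, 4 passed as well, with 1.54 for Rgs1, 5.99 for Saa3, 1.16 for Vmp1 and 0.82 for Gins1. The values are log2 fold changes of experiment 2 minus those of experiment 1. Among the MCP chemokines they were 2.73 for Ccl2 and 3.66 for Ccl7, and among the receptors -9.36 for Ccr2 and -3.77 for Ccr1. Among the MIP chemokines they were 0.80 for Ccl3, 1.34 for Ccl4 and -1.86 for Ccl9. Inducers and transcription factors gave 0.86 for Tnfrsf1b, -7.92 for Csf1, 1.41 for Fos, 1.53 for Cebpb, -4.12 for Irf1 and -2.41 for Nfkb2. Zc3h12a had 1.06, Mmp9 3.75 and Mmp2 -3.54. Interferon stimulated genes had -6.09 for Ifit2, -6.20 for Mx1, -7.28 for Ifi205 and -3.96 for Isg15, and the deleted gene Mkl1 had -0.77. The call was lost without WT 1 or KO 6 for Ccl3 (0.75 and 0.77, adjusted p = 0.058 both times in edgeR) and without KO 6 for Ccr1 (-3.46, adjusted p = 0.054). It was lost for Mmp2 without WT 1, WT 3, WT 4, KO 5 or KO 6 (-3.65 to -3.00), and for Mkl1 without WT 1, WT 2, WT 4, KO 5 or KO 6 (-0.82 to -0.70).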

How the results depend on the processing

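No paired analysis was possible because WT libraries were numbered 1 to 4 and KO libraries 5 to 8, so the groups shared no number. Each experiment had 2 libraries per genotype, so leaving 1 out left an arm with 1 library, which is then assumed to vary like the other pair. In experiment 1, Ccl2 kept its call under all 7 alternatives that kept every library. Its highest adjusted p over these edgeR, DESeq2 and limma-voom fits was 0.0496, just under the threshold. Ccl7 kept its call under 6, all but the fit with no filter on low counts (-3.13, adjusted p = 0.0533 in edgeR). As each library was left out, log2 fold changes in experiment 1 ranged from -3.29 to -2.57 for Ccl2, -3.56 to -2.78 for Ccl7, 1.00 to 2.90 for Ccl8 and -0.58 to 0.02 for Ccl12, whose sign turned without WT 2 (0.0184) and without KO 5 (0.00885). In experiment 2 they ranged from -0.67 to 0.25 for Ccl2, whose sign turned without WT 3 (0.22) and KO 8 (0.25), from -0.12 (without KO 7) to 1.25 for Ccl7, and from -0.47 (without KO 7) to 4.31 for Ccl8. There the count of called genes, 2358 with all libraries, ranged from 293 (without KO 8) to 1166 (without WT 4) and was 4955 with all 8 libraries in 1 fit. The interaction of Ccl8 was -0.0428 in limma-voom, 1.67 with no filter (then past the threshold, adjusted p = 1.4e-05 in edgeR) and -2.17 to 2.61 as each library was left out, the lowest without KO 7. That of Ccl12 was -1.32 with no filter (adjusted p = 1.2e-08) and -2.94 to 0.0880, the highest without WT 3.

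The mean over both experiments, with 1070 called genes, gave 2557 in DESeq2, 4962 as the mean of both contrasts in a fit with 4 groups, 4 with no experiment term and 231 to 1128 as each library was left out. Ccl2 then passed in DESeq2 (-1.51, adjusted p = 0.036) and in the fit with 4 groups (-1.50, adjusted p = 0.0044 in edgeR), Ccl7 in the latter (-1.27, adjusted p = 0.024) and Ccl8 in DESeq2 (2.51, adjusted p = 0.025). Other signs that turned, all beside values that passed no test, were in experiment 2 those of Cebpb (0.000433 with upper-quartile scaling, 0.0437 without KO 7), Ccr3 (-0.0410 in limma-voom, -0.950 to 0.70 as each library was left out, with -0.309 without WT 3) and Mmp2 (-0.431 in limma-voom, -1.86 to 0.97), the lowest of both without KO 7, and the interaction of Tnf (-0.0422 without KO 5 to 0.36). The causes were not tested. Ccl8 had the fewest counts of the members, and the 27 of WT 1 have a 95% Poisson interval of 17.8 to 39.3, which covers counting error only.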

Other observations

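The CC chemokines listed by symbol, a set chosen after values were seen, were 25 genes, of which 14 were tested. In experiment 1, 4 of these fell (Ccl2, Ccl3, Ccl4 and Ccl7) and 4 rose (Ccl5, Ccl6, Ccl24 and Ccl25), where 27.4% and 26.8% of all tested genes did. In experiment 2, 4 fell (Ccl3, Ccl4, Ccl9 and Ccl22) and none rose in edgeR (8% and 7.1% of all tested genes), with 1 higher in KO at an unadjusted p under 0.05, Ccl28. Ccl22, Ccl24 and Ccl28 passed the filter on low counts only through libraries in which they were high, which for Ccl28 were KO libraries. Their results are thus a description, and these counts are not read against the shares of all genes. Ccl28 had 4, 3, 1 and 5 counts in WT 1 to 4 and 7, 10, 13 and 21 in KO 5 to 8. Ccl22, a macrophage-derived ligand of Ccr4, had 187 and 136 counts in WT 3 and 4 and 0 in both KO libraries of experiment 2, and between 0 and 6 counts in the libraries of experiment 1. Ccl24, an eotaxin, had 12 and 15 counts in KO 5 and 6 and at most 1 in the other 6 libraries. Ccl25, a ligand of Ccr9, rose in experiment 1 from 7.00 and 7.17 to 9.88 and 9.53 CPM (log2 fold change 0.44, adjusted p = 0.013 in edgeR).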
